A study of Mus musculus with 6 samples.

Results

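ZBTB transcription factors pair a BTB domain with C2H2 zinc fingers, and 45 entries of the deposited table carry that family name in its transcription factor column. Of these, 35 are described here, chosen by a mean level of at least 1 FPKM over the 6 libraries, out of 11708 genes that passed the same filter. FPKM are counts scaled by gene length and library size. The cells were RAW264.7, a mouse macrophage line from a virus-induced tumour, cultured for 3 d. The C/D group grew with a composite of GelMA (a methacryloyl-modified gelatin) and PEDOT:PSS, a conducting polymer blend, plus PLLA/PDA, under dynamic conditions simulated by ultrasound at 48 kHz for 5 min. The Gel/S group was static, with GelMA alone. Each group had 3 mRNA libraries. Material and ultrasound changed together, so their parts cannot be told apart. The labels do not say whether the replicates were separate cultures, so p-values measure only the spread between these libraries, which may be technical.

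The BTB domain lets these proteins form dimers and recruit corepressors such as NCOR, BCOR and histone deacetylases, while the zinc fingers read the DNA sequence. Most known members repress transcription, and some activate it. In blood cells the family is known for lineage choices. Bcl6 directs germinal centre B cells, Zbtb7b (ThPOK) directs helper T cells, and Zbtb20 is known in mouse macrophages to repress the gene for the NF-kB inhibitor I-kappa-B-alpha.

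Library totals ranged from 12818831 to 15802627 counts in C/D and from 15579679 to 16525699 in Gel/S. Mitochondrial transcripts took 9.17 to 10.4% of the counts in C/D and 5.59 to 9.02% in Gel/S. The 10 macrophage markers summed to 11021 to 11190 FPKM in C/D and 13540 to 14141 FPKM in Gel/S, and none was at 0. Of 9 tested, only Csf1r passed, and it fell (log2 fold change −0.48, edgeR adjusted p = 0.00736), while 3 had a positive log2 fold change. The 9 osteoclast markers summed to 55.7 to 61.5 FPKM in C/D and 62.2 to 63.3 FPKM in Gel/S, with Calcr at 0. Members moved in opposite directions within that sum: of 5 tested, Atp6v0d2 (log2 fold change 0.83, edgeR adjusted p = 0.00122) and Acp5 (0.53, 0.00818) rose and Dcstamp (−0.96, 6.29e-05) fell. The 6 dendritic markers summed to 19.7 to 22.4 FPKM in C/D and 35.9 to 37.5 FPKM in Gel/S, with none at 0. Most of that sum came from the only 2 that passed the level filter, Itgax and Siglech. Itgax averaged 12.1 FPKM in C/D and 20.5 FPKM in Gel/S, and Siglech 8.99 and 16.1 FPKM. The 9 fibroblast and mesenchymal markers stayed at 1.04 to 1.17 FPKM in C/D and 0.954 to 1.33 FPKM in Gel/S, with Col1a2, Col3a1, Dcn and Lum at 0. The 7 lymphocyte markers stayed at 0.594 to 0.837 FPKM in C/D and 0.348 to 0.652 FPKM in Gel/S, with Cd8a and Ms4a1 at 0. What part the shifts in the sums of macrophage and dendritic markers and in mitochondrial transcripts have in the values below was not tested. In the table the control columns are headed GEL and the others US, which was read as ultrasound and hence C/D, and every direction rests on that reading.

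In C/D, 9 of the 35 ZBTB genes rose and 0 fell, while 26 missed the threshold. Bcl6b, an entry of the family left out by the level filter, averaged 0.480 FPKM in C/D and 1.19 FPKM in Gel/S. It fell in edgeR's test without that filter (log2 fold change −1.31, adjusted p = 1.12e-05). The largest rises were in Zbtb34, Zbtb43, Zbtb39, Zbtb6, Zbtb20 and Zbtb26, by 1.5- to 1.86-fold, followed by smaller rises in Zbtb37, Zbtb38 and Zbtb44, by 1.28- to 1.30-fold. The members best known from blood cells, among them Bcl6, Zbtb7a, Zbtb7b and Zbtb17, were not among them, apart from Zbtb20. In bulk RNA, fewer cells with a transcript and less of it per cell cannot be told apart. The test was edgeR's quasi-likelihood test with Benjamini-Hochberg adjustment over all 11708 genes and a threshold of 0.05. Over all tested genes it called 13.1% higher and 13.9% lower in C/D. The 9 rises are 25.7% of the ZBTB genes, and their median log2 fold change was 0.10, against 0.01 for all tested genes. At an unadjusted p under 0.05, 12 of them were higher and 0 lower by edgeR, and DESeq2 also gave 9 higher and 0 lower.

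Among the much larger zf-C2H2 family, zinc finger factors mostly without a BTB domain, 79 of 310 tested genes (25.5%) rose and 13 (4.19%) fell, and the median log2 fold change was 0.19. Of 346 tested factors of other families, 47 (13.6%) rose and 59 (17.1%) fell, around a median of 0.01. The share of ZBTB genes that rose was thus near that of the other C2H2 zinc finger genes, and above that of all tested genes. No test of the list itself was made, since its members were chosen with results known. FPKM of the groups did not overlap for 14 ZBTB genes higher and 3 lower in C/D, of 35, while 19.1% of all tested genes were higher and 27.1% lower without overlap.

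**Figure D1:**
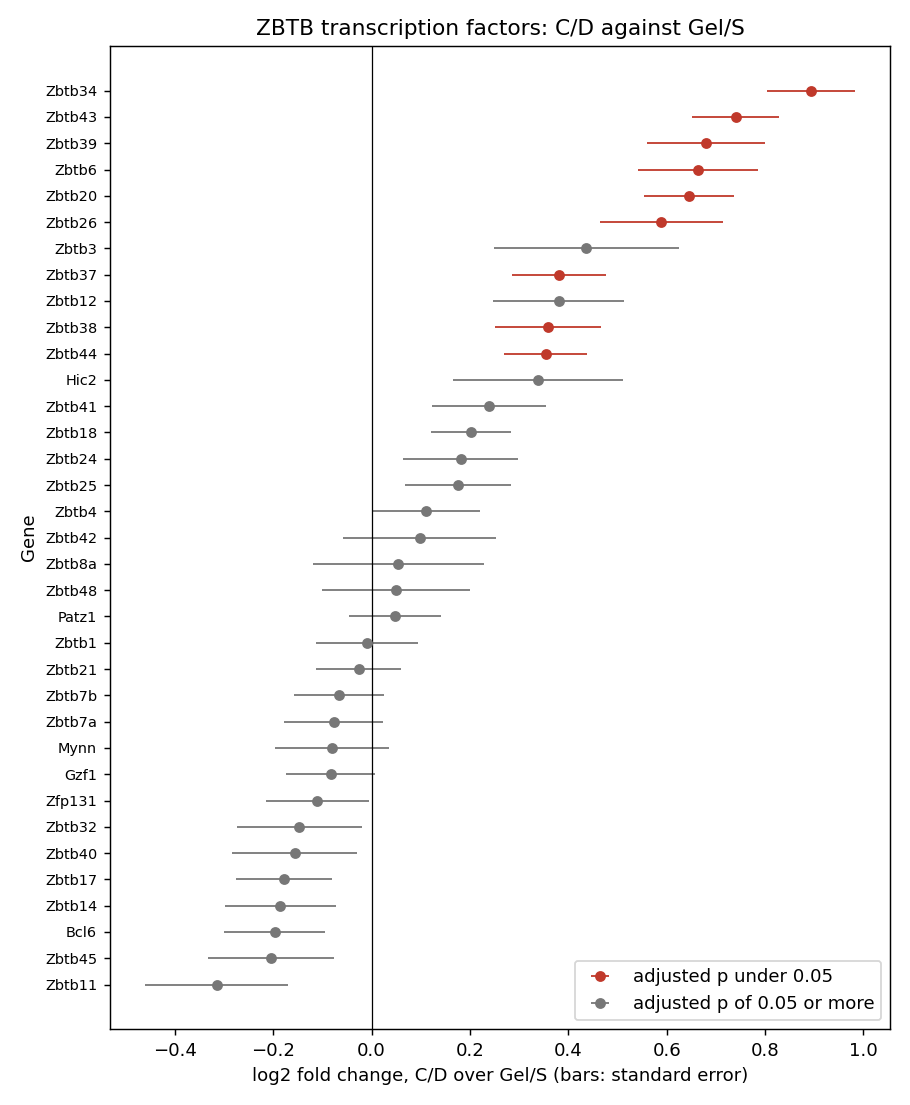
log2 fold change of each of the 35 ZBTB genes, C/D over Gel/S, from edgeR (points) with its standard error (bars), ordered by size. The 9 genes with an adjusted p under 0.05 (red) all lie to the right of 0, from 0.35 for Zbtb44 to 0.89 for Zbtb34.

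**Figure D2:**
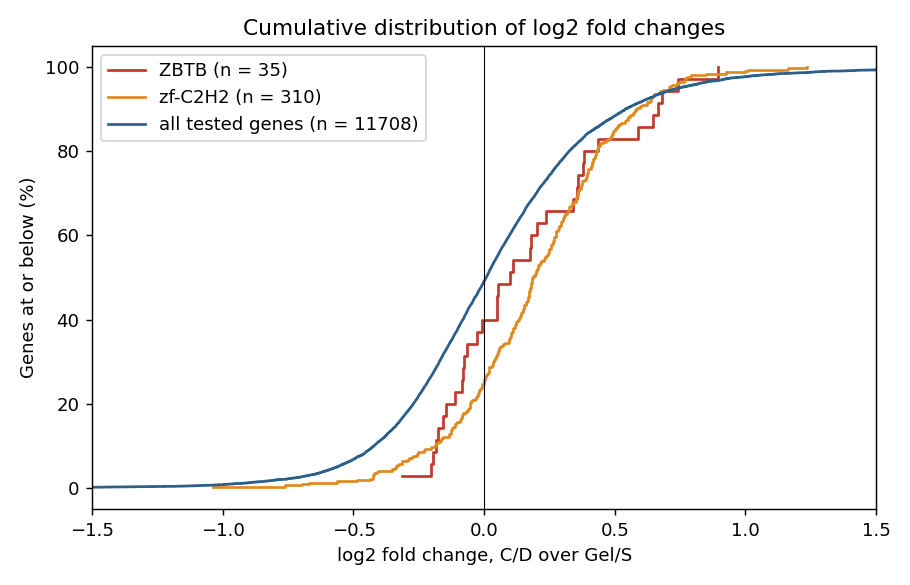
Share of genes (vertical axis, %) at or below each log2 fold change (horizontal axis, C/D over Gel/S) for ZBTB genes, zf-C2H2 genes and all tested genes. The curves of both zinc finger families lie to the right of that of all genes over most of the range, with medians of 0.10, 0.19 and 0.01.

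Chromosome 2 held 5 of the 35 genes, and 4 of these rose: Zbtb34 and Zbtb43 are next to each other on the minus strand, 18.962 kb apart, and Zbtb6 and Zbtb26 overlap on the same strand. The other neighbouring pair of the family, Zbtb25 and Zbtb1 on chromosome 12, lies only 0.663 kb apart, and neither gene passed the test (log2 fold changes 0.18 and −0.01). For the 4 that rose on chromosome 2, bases before the RefSeq start (GRCm38.p6) are printed to show what lies upstream. Each stretch is the longest run with no exon in GENCODE M21 within 250 bases, so it can stop short of the start. Each is 5′ to 3′ on the gene's strand, and capitals mark matches to any of 8 letter motifs searched on both strands.
Zbtb34, chr2:33431325-33431574, minus strand: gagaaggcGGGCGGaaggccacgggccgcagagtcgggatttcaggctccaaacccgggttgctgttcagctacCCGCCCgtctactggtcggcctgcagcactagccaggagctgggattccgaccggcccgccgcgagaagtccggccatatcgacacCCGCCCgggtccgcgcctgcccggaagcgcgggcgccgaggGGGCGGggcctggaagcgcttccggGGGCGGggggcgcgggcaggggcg
Zbtb43, chr2:33468560-33468782, minus strand: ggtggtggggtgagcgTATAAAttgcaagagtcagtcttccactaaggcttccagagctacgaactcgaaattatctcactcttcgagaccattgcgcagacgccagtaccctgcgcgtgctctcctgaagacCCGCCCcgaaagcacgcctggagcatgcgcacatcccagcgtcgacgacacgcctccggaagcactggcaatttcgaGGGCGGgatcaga
Zbtb6, chr2:37430980-37431169, minus strand: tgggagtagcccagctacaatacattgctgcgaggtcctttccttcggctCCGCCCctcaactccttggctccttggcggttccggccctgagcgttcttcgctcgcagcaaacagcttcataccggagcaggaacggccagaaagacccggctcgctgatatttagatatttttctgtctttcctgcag
Zbtb26, chr2:37443173-37443278, minus strand: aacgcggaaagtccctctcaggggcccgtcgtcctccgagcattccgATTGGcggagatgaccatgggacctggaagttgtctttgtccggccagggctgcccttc

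The SP and KLF box was searched as GGGCGG and the NF-Y box as CCAAT, both short and common in promoters. For ETS factors the letters were CCGGAAGT, and for CREB and ATF factors TGACGTCA. The NRF1 motif was also searched. The E-box, bound by MYC and its relatives, was searched as CACGTG. For Kaiso, the product of Zbtb33, the letters were TCCTGCNA. The TATA box, which marks a minority of promoters, was searched as TATAAA. No pair of these motifs overlaps in the printed stretches. Zbtb34 has 5 SP and KLF boxes and 32 CpG in its 250 bases, Zbtb43 has 2 such boxes and 1 TATA box, Zbtb6 has 1 SP and KLF box, and Zbtb26 has 1 NF-Y box read on the other strand. The TATA box letters of Zbtb43 lie near the upstream end of its stretch, the end farthest from the start. In the full 250 bases, the SP and KLF box was found before 27 of the 33 ZBTB genes in the RefSeq table (81.8%), before 8 of the 9 that rose, before 64.7% of 8230 tested genes matched and before 35.4% of all 27025 genes. The median over ZBTB genes was 22 CpG in 250 bases, against 17 for tested genes. Where a gene had several RefSeq starts, the one with the most CpG was used, and a motif at any start counted. The Kaiso letters were found before 3 of the 33 (9.09%) and before 4.67% of tested genes. A match is only a run of letters in this window.

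The Zbtb26 stretch lies between Rabgap1, which starts on the other strand, and the upstream ends of both Zbtb26 (37443135) and Zbtb6 (37443171). The Zbtb6 stretch is less certain as a promoter, since it lies inside the Zbtb6 gene (37425500 to 37443171). GENCODE M21 has the first exon of one Zbtb6 transcript at 37430809 to 37430919, just below that stretch, and that of another at 37442687 to 37443171, where the first exon of a Zbtb26 transcript (37442687 to 37443121) also lies. Exons of Zbtb6 and Zbtb26 share 449 bases on the same strand, 8.84% of Zbtb6 and 4.73% of Zbtb26. Their counts may thus not be fully separate, which depends on the counter, and the sources do not name it.

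Zbtb34 (chromosome 2, 33406108 to 33431324), which encodes a little studied protein, was at 12.0, 10.7 and 10.9 FPKM in C/D 1 to 3 and at 5.93, 6.38 and 6.32 FPKM in Gel/S 1 to 3. Every C/D library was well above every Gel/S library. It averaged 11.2 ± 0.706 FPKM in C/D and 6.21 ± 0.243 FPKM in Gel/S (SD, n = 3 each). The log2 fold change was 0.89 (SE 0.0897, edgeR adjusted p = 0.000111), the largest of the 35 genes. Zbtb43 (33450287 to 33468559), known in mouse male germ cells for binding Z-DNA, was at 9.26, 9.75 and 8.79 FPKM in C/D and at 5.83, 5.69 and 5.62 FPKM in Gel/S. The libraries of each group lay close together and the groups did not meet. Its log2 fold change was 0.74 (SE 0.0888, edgeR adjusted p = 0.000319). No exon of Zbtb34 or Zbtb43 overlaps another gene in GENCODE M21. Within 100 kb of this pair 1 other gene was tested, Ralgps1, which encodes an activator of Ral GTPases, and it rose too (log2 fold change 0.66, SE 0.157, edgeR adjusted p = 0.0104).

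Zbtb6 (37425500 to 37443171) had the highest mean level of the family, 12.6 FPKM. It was at 12.3, 16.4 and 17.01 FPKM in C/D and at 8.99, 10.6 and 10.2 FPKM in Gel/S. C/D 1 was the lowest C/D library and still above all of Gel/S. The log2 fold change was 0.66 (SE 0.122, edgeR adjusted p = 0.00308). Zbtb26 (37432168 to 37443135) was at 2.53, 2.84 and 2.82 FPKM in C/D and at 1.63, 1.84 and 2.14 FPKM in Gel/S, again with no overlap. Its log2 fold change was 0.59 (SE 0.125, edgeR adjusted p = 0.00596), and it did not pass with limma on log2(TPM + 1), with an adjusted p of 0.0767. The other 4 tested genes within 100 kb, Pdcl, Rabgap1, Rc3h2 and Strbp, had log2 fold changes of −0.17 to 0.11 and none passed (adjusted p = 0.335 to 0.472, edgeR). That holds for Rabgap1, which starts across the stretch printed for Zbtb26, at a log2 fold change of −0.12 with SE 0.110.

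Zbtb39 (chromosome 10, 127739538 to 127747349), with few known functions, was at 4.54, 4.98 and 5.06 FPKM in C/D and at 2.73, 3.12 and 3.52 FPKM in Gel/S. The groups did not overlap, and the log2 fold change was 0.68 (SE 0.120, edgeR adjusted p = 0.00245). Zbtb20 (chromosome 16, 42875881 to 43642602), the macrophage repressor named above, was one of the lowest members. It was at 1.69, 1.79 and 1.81 FPKM in C/D and at 1.28, 1.07 and 1.14 FPKM in Gel/S. All C/D libraries were higher. The log2 fold change was 0.65 (SE 0.0919, edgeR adjusted p = 0.000831). Its listed length of 30730 bases spreads 531 to 886 counts per library over a long gene. The call was lost with limma on log2(FPKM + 0.1) (adjusted p = 0.0526) and on log2(TPM + 1) (adjusted p = 0.115, log2 fold change 0.39).

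Zbtb44 (chromosome 9, 31030644 to 31075885) was at 10.9, 11.8 and 10.7 FPKM in C/D and at 8.92, 8.47 and 9.54 FPKM in Gel/S. The groups did not overlap, and the log2 fold change was 0.35 (SE 0.0845, edgeR adjusted p = 0.0105). Its adjusted p was 0.0647 without C/D 2, and 0.181 with limma on log2(TPM + 1), where the log2 fold change was 0.21. Zbtb37 (chromosome 1, 161002922 to 161034849) was at 2.66, 2.97 and 2.89 FPKM in C/D and at 2.06, 2.40 and 2.28 FPKM in Gel/S. All C/D libraries were higher, and the log2 fold change was 0.38 (SE 0.0952, edgeR adjusted p = 0.0130), which missed the threshold without C/D 2 (0.0674) or C/D 3 (0.0531). It also missed it with the gene length offset (0.0702) and under all 3 limma settings, with the highest adjusted p, 0.212, on log2(TPM + 1), at a log2 fold change of 0.21. Of its exonic bases, 15.6% overlap Serpinc1 on the opposite strand, a gene at a mean of 0.0771 FPKM here. Zbtb38 (chromosome 9, 96682770 to 96752831), which binds methylated CpG, was at 3.33, 3.98 and 4.09 FPKM in C/D and at 3.06, 2.78 and 3.32 FPKM in Gel/S. C/D 1 and Gel/S 3 nearly met. The log2 fold change, 0.36 (SE 0.107, edgeR adjusted p = 0.0287), missed the threshold without C/D 2 (adjusted p = 0.113), C/D 3 (0.117) or Gel/S 2 (0.0506). It did so too under all 3 limma settings, with the highest adjusted p, 0.325, on log2(TPM + 1), at a log2 fold change of 0.20.

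**Figure D3:**
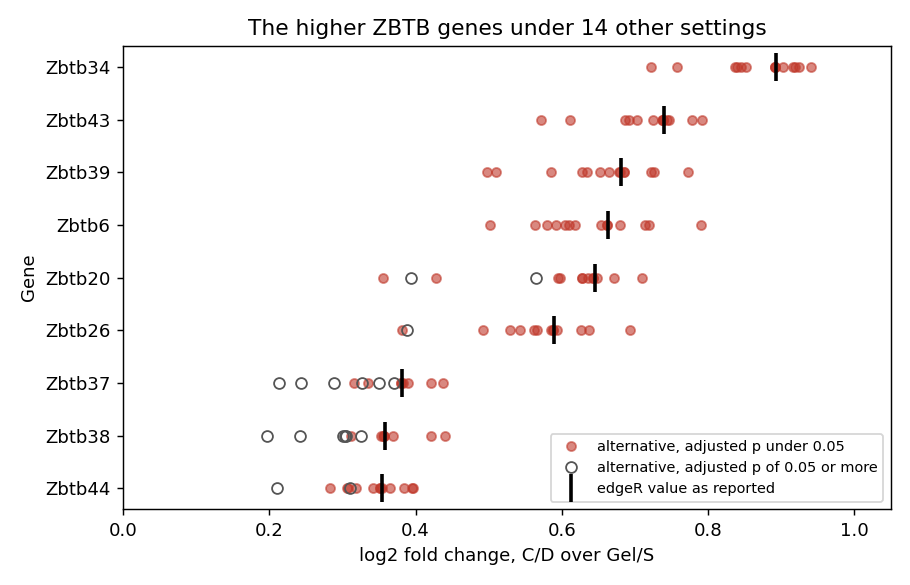
log2 fold change, C/D over Gel/S, of the 9 ZBTB genes that rose, as reported (black bars) and under 14 other settings (points). All values are above 0, and Zbtb34, Zbtb43, Zbtb39 and Zbtb6 stay under an adjusted p of 0.05 in all 14, while Zbtb37 and Zbtb38 do so in 8.

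The most abundant members other than Zbtb6 did not pass the test. Zbtb18 encodes a repressor needed for brain and muscle development. It was at 13.0, 13.8 and 12.5 FPKM in C/D and at 11.9, 11.4 and 11.9 FPKM in Gel/S. The groups did not overlap, yet the log2 fold change was 0.20 (SE 0.0805) at an edgeR adjusted p of 0.0807. Gzf1, known for its induction by GDNF, was at 11.7, 11.3 and 10.4 FPKM in C/D and at 12.7, 11.2 and 12.5 FPKM in Gel/S, with overlap. The log2 fold change was −0.08 (SE 0.0912, edgeR adjusted p = 0.518). Zbtb7b was at 11.6, 10.7 and 11.3 FPKM in C/D and at 13.2, 10.8 and 12.1 FPKM in Gel/S. These overlap, and the log2 fold change was −0.07 (SE 0.0918, edgeR adjusted p = 0.611).

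Zbtb7a, a silencer of fetal globin genes and a repressor of glycolysis genes in human cancer cells, was at 9.44, 10.7 and 12.1 FPKM in C/D and at 12.7, 10.9 and 11.6 FPKM in Gel/S. The C/D libraries spread more widely than the difference between the groups, and the log2 fold change was −0.08 (SE 0.101, edgeR adjusted p = 0.592). Zbtb32, a repressor of T cell activation, was at 12.1, 9.31 and 9.65 FPKM in C/D and at 10.8, 12.7 and 11.8 FPKM in Gel/S. C/D 1 lay among the Gel/S libraries, and the log2 fold change was −0.15 (SE 0.127, edgeR adjusted p = 0.407). Of 3 glycolysis genes that ZBTB7A represses in human cells, Pkm (log2 fold change −0.55, edgeR adjusted p = 0.00531) and Pfkp (−0.35, adjusted p = 0.0123) fell and Slc2a3 did not pass. The call of Pfkp was lost without C/D 2 (adjusted p = 0.0667) or C/D 3 (0.0643).

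**Figure D4:**
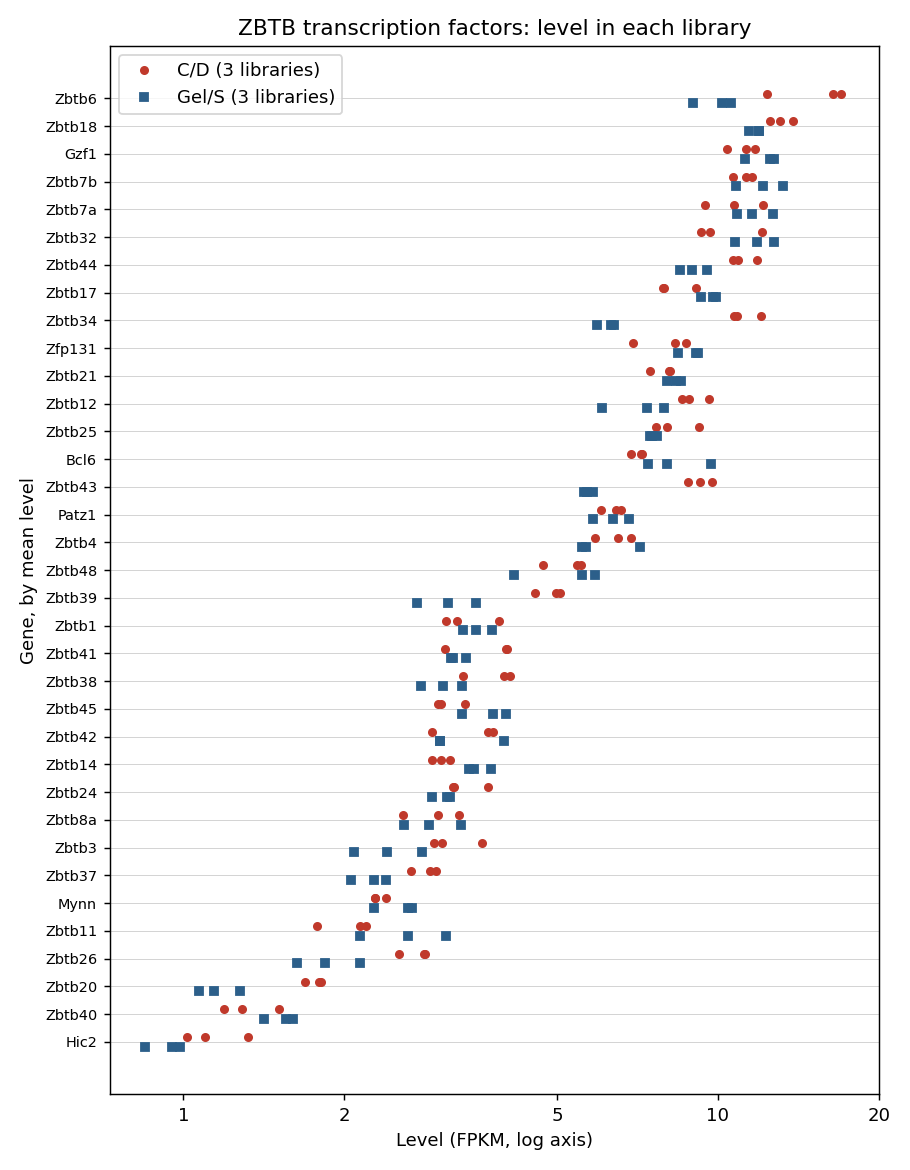
Level of each of the 35 ZBTB genes in each library (horizontal log axis, FPKM), ordered by mean level, with 3 C/D libraries (circles) above 3 Gel/S libraries (squares). Mean levels run from 1.04 FPKM for Hic2 to 12.6 FPKM for Zbtb6, and the groups stand farthest apart in Zbtb34.

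Other members known from blood and immune cells stayed under the threshold as well. Bcl6, the repressor that directs germinal centre B cells, averaged 7.09 ± 0.188 FPKM in C/D and 8.38 ± 1.19 FPKM in Gel/S. Its groups did not overlap, with Gel/S 2 the nearest at 7.41 FPKM, and its log2 fold change was −0.20 (edgeR adjusted p = 0.167). Without Gel/S 2 it was −0.27 and passed (adjusted p = 0.0486). Zbtb17, or MIZ1, the partner of MYC in repression, averaged 8.30 ± 0.680 FPKM in C/D and 9.66 ± 0.318 FPKM in Gel/S (log2 fold change −0.18, edgeR adjusted p = 0.186). Patz1, known in T cell development, averaged 6.36 ± 0.278 FPKM in C/D and 6.34 ± 0.487 FPKM in Gel/S (0.05, adjusted p = 0.731). Zbtb1, needed for lymphocyte development in mice, averaged 3.42 ± 0.424 FPKM in C/D and 3.55 ± 0.221 FPKM in Gel/S (−0.01, adjusted p = 0.957). Zbtb24, mutated in a human syndrome of immunodeficiency and centromere instability, averaged 3.37 ± 0.302 FPKM in C/D and 3.06 ± 0.127 FPKM in Gel/S (0.18, adjusted p = 0.265), and Zbtb25 8.30 ± 0.813 FPKM in C/D and 7.56 ± 0.127 FPKM in Gel/S (0.18, adjusted p = 0.241).

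Of the members that read methylated DNA, Zbtb4 averaged 6.42 ± 0.507 FPKM in C/D and 6.13 ± 0.889 FPKM in Gel/S, with a log2 fold change of 0.11 (edgeR adjusted p = 0.467), so Zbtb38 was the one that passed. Of those that bind telomeric repeats, Zbtb48 averaged 5.23 ± 0.465 FPKM in C/D and 5.20 ± 0.928 FPKM in Gel/S (0.05, adjusted p = 0.829) and Zbtb40 1.33 ± 0.163 FPKM in C/D and 1.53 ± 0.0978 FPKM in Gel/S (−0.16, adjusted p = 0.377). In both, the groups overlapped.

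Zbtb11, needed for neutrophil development in zebrafish, had the lowest log2 fold change of the 35 genes, −0.31 (SE 0.145, edgeR adjusted p = 0.124). It was at 1.78, 2.20 and 2.14 FPKM in C/D and at 3.10, 2.14 and 2.63 FPKM in Gel/S. Gel/S 2 lay among the C/D libraries, and without it the log2 fold change was −0.44 (adjusted p = 0.0244). Exons of other genes cover 11.5% of its exonic bases, the most by its antisense gene Zbtb11os1. Zbtb12 (0.38, SE 0.133) just missed the threshold with an adjusted p of 0.0525, and Zbtb3 (0.44, SE 0.188, adjusted p = 0.101) rests on 68 to 100 counts per library. Zbtb41 had a log2 fold change of 0.24 (adjusted p = 0.142), which passed without C/D 1 (0.35, adjusted p = 0.0464).

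The remaining 8 members not yet described ranged in log2 fold change from −0.20 for Zbtb45 to 0.34 for Hic2, with edgeR adjusted p of 0.160 to 0.841. They were Zbtb45 (−0.20), Zbtb14 (−0.19), Zfp131 (−0.11), Mynn (−0.08), Zbtb21 (−0.03), Zbtb8a (0.05), Zbtb42 (0.10) and Hic2. Of the 26 genes that did not pass, 12 had a positive and 14 a negative log2 fold change, and 8 of the 35 changed sign under at least 1 setting, none of them among the 9 that rose. Spread within groups was small, with a median coefficient of variation of 7.90% in C/D and 7.87% in Gel/S. Across the 35 genes the log2 fold change had a Spearman rho of −0.05 with mean FPKM and 0.15 with listed gene length, as a description of genes that share the same 6 libraries. Listed lengths were a median of 5960 bases over the ZBTB genes and 3763 bases over all tested genes.

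The threshold fell among closely spaced genes. Just inside it, Hic2, known in human red cell precursors for repressing BCL11A, had a mean of 1.04 FPKM, with 1.14 FPKM in C/D and 0.928 FPKM in Gel/S, and so passed through C/D. Exons of other genes, mostly Gm26635, which is listed at 0, cover 50.7% of its exonic bases. Just outside were Zbtb2 at 0.999 and Zbtb49 at 0.938 FPKM, both of which encode regulators of the p53 and Cdkn1a pathway. In all, 10 entries of the family fell below 1 FPKM. Bcl6b, the close relative of Bcl6, was at 0.480 ± 0.0794 FPKM in C/D and 1.19 ± 0.0828 FPKM in Gel/S, on 21 to 32 counts per C/D library and 67 to 74 per Gel/S library. In edgeR's test without the level filter it fell by 1.31 on the log2 scale (SE 0.258, adjusted p = 1.12e-05). Zfp651, Zbtb46, Hic1 and the pseudogene Gm18856 had means of 0.163 to 0.853 FPKM and did not pass there. Zbtb7c, Zbtb8b and Zbtb16, the PLZF gene, had 0 counts in every library, which allows up to 3 counts per library, or 0.182 to 0.234 CPM (counts scaled to library size), for counting error only.

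The family column misses some genes with a Zbtb symbol. Zbtb5, a repressor of Cdkn1a, is one, and it rose as well, with 6.53, 5.22 and 5.49 FPKM in C/D and 4.09, 4.26 and 4.13 FPKM in Gel/S (log2 fold change 0.51, SE 0.112, edgeR adjusted p = 0.00715). The call of Zbtb5 was lost with limma on log2(TPM + 1) (log2 fold change 0.34, adjusted p = 0.0715). Zbtb22 (log2 fold change −0.12, adjusted p = 0.389) and Zbtb33, which encodes the methylated DNA reader Kaiso (0.18, adjusted p = 0.237), did not pass. Zbtb9 and Zbtb10 are listed at 0 in all 6 libraries.

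Partners and pathways of the family were read from lists chosen with earlier results of these data known. Their shares stand beside 13.1% higher and 13.9% lower over all tested genes. Of 22 tested corepressor genes, 4 fell (18.2%, near the 13.9% of all tested genes) and 0 rose. Their median log2 fold change was −0.17, against 0.01 for all tested genes. Bcor, which binds the BTB domain of BCL6, averaged 6.06 ± 0.296 FPKM in C/D and 8.11 ± 0.427 FPKM in Gel/S (log2 fold change −0.38, SE 0.0839, edgeR adjusted p = 0.00753). Sin3a (−0.34, adjusted p = 0.0168), a scaffold of deacetylase complexes, fell, as did Ctbp1 (−0.27, 0.0250) and the deacetylase gene Hdac1 (−0.26, 0.0459). The calls of these 3 were fragile. That of Sin3a was lost without C/D 2, C/D 3 or Gel/S 3 (highest adjusted p = 0.0843), that of Ctbp1 without any library but Gel/S 1 or 2 (highest 0.0893), and that of Hdac1 without any library but Gel/S 2 (highest 0.143). Ctbp1 and Hdac1 also lost theirs with the replicate number as a block (0.0528 and 0.0827) and Hdac1 with DESeq2 (0.0601), limma on log2(TPM + 1) (0.0527) and the gene length offset (0.0692).

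Among 51 tested BTB genes without zinc fingers, most of which encode adaptors of the cullin 3 ubiquitin ligase, listed with its core genes Cul3 and Rbx1, 10 rose (19.6%, against 13.1% of all tested genes) and 5 fell (9.80%, against 13.9%). Their median log2 fold change was 0.07. Kbtbd11, which encodes such a Kelch protein, averaged 168 ± 2.71 FPKM in C/D and 85.2 ± 3.11 FPKM in Gel/S (log2 fold change 1.02, SE 0.0903, edgeR adjusted p = 6.29e-05). Klhl9 (0.72), Klhl24 (0.66) and Klhl42 (0.66) rose too (adjusted p = 0.000719 to 0.00240). The 5 that fell were Cul3 itself (−0.29), Spop (−0.40), Kctd10 (−0.85), Kctd17 (−0.49) and Nacc1 (−0.34), named after their values were seen.

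Of 14 tested genes of DNA methylation and its readers, 6 fell (42.9%, against 13.9% of all tested genes) and 3 rose (21.4%, against 13.1%), around a median log2 fold change of −0.10. Uhrf1, which guides maintenance methylation, averaged 12.5 ± 1.62 FPKM in C/D and 27.8 ± 2.90 FPKM in Gel/S (log2 fold change −1.11, SE 0.107, edgeR adjusted p = 0.000100). Cdca7 (−0.71, adjusted p = 0.000706) and Hells (−0.82, adjusted p = 0.00182), mutated like ZBTB24 in the human immunodeficiency syndrome, fell, and Tet3 (0.58, adjusted p = 0.00172), which oxidizes methylcytosine, rose. Tet3 missed the threshold with limma on log2(TPM + 1) (0.0739).

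The next list joined genes of the MYC network with genes tied to MIZ1, among them Vps28, and the figure labels it MYC network. Of its 11 tested genes, 3 rose (27.3%, against 13.1% of all tested genes) and 1 fell (9.09%, against 13.9%). Their median log2 fold change was 0.05. Myc was at 2.25 ± 0.336 FPKM in C/D and 3.71 ± 0.405 FPKM in Gel/S (log2 fold change −0.68, SE 0.166, edgeR adjusted p = 0.0117; 0.0562 without C/D 3), while Mga (0.44), Mxd4 (0.64) and Vps28 (0.39) rose (adjusted p = 0.00259 to 0.0345). Mxd4 lost its call without C/D 1 (0.0706) and under all 3 limma settings (highest 0.147), and Mga on TPM (0.0951). Vps28 lost it without any library but Gel/S 1 or 2 (highest 0.147), with the replicate block (0.0632) and under all 3 limma settings (highest 0.110). Of 12 tested genes that BCL6 is known to repress, 3 fell (25.0%, against 13.9% of all tested genes) and 1 rose (8.33%, against 13.1%), around a median of −0.15. Cd44 was at 13.6 ± 0.561 FPKM in C/D and 26.2 ± 4.31 FPKM in Gel/S (−0.90, adjusted p = 0.000322), Ccnd2 (−0.72) and Ccl2 (−0.97, 0.0511 without C/D 2) fell, and Cdkn1b (0.45; 0.0544 with limma on TPM) rose. Of 9 tested shelterin and telomerase genes, 1 fell (11.1%, against 13.9% of all tested genes), Dkc1 (−0.43, adjusted p = 0.0185; 0.0832 without C/D 1 and 0.0546 with limma on TPM), with a median of −0.08.

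**Figure D5:**
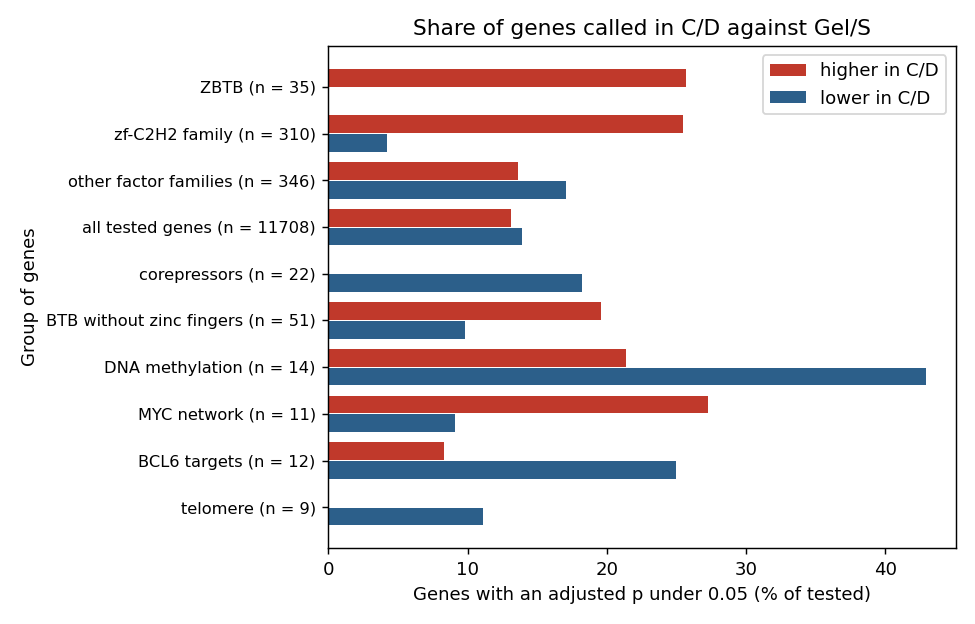
Share of tested genes (horizontal axis, %) higher (red) and lower (blue) in C/D at an edgeR adjusted p under 0.05, for ZBTB genes, other factor families, all tested genes and the lists of partners and pathways, with the number tested beside each name. ZBTB and zf-C2H2 genes have 25.7% and 25.5% higher, against 13.1% of all tested genes.

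In the authors' deposited table, 8 of the 35 ZBTB genes had an adjusted p under 0.05, and all 8 were higher in C/D once the sign of the log2 ratio, given there as Gel/S over C/D, was turned. These 8 are among the 9 called by edgeR, and the one not shared is Zbtb38 (adjusted p of 0.0594 in the authors' deposited table). The sign was the same in both for 35 of 35 genes. These come from the same libraries and are not independent of the values above.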

How the data were processed

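RNA of RAW264.7 cells was sequenced from 3 C/D and 3 Gel/S libraries, grouped by their titles, with the SMARTER mRNA-Seq kit and mapping to GRCm38 (mm10) per the labels' protocols and the submitters' processing notes. Raw counts per gene, without normalization, and FPKM values were made by the authors, per the file headers. The signal columns (group means of scaled counts), log2 ratios and p-values in the deposited table are also the authors' own. The sources used here do not name the aligner, counter, strandedness or the authors' test, and without strand, overlapping genes cannot be told apart.

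Of 54532 entries, 0 lacked a gene. The 27 symbols that a spreadsheet had turned into dates were restored, and entries of 100 shared symbols were summed. Genes with a mean FPKM of at least 1 were tested with edgeR 4.0.16 (R 4.3.3, TMM, quasi-likelihood, Benjamini-Hochberg over 11708 genes). SE was taken as the log2 fold change's size divided by the root of F. The alternatives were DESeq2 1.42.0, RLE factors, no level filter, limma 3.58.1 on log2(FPKM + 1), log2(FPKM + 0.1) and log2(TPM + 1), a gene length offset, a replicate block and leaving out each library. The pipeline was tested on simulated counts. Promoter sequences are RefSeq's (GRCm38.p6), and positions of 34 members are the same in GENCODE M21.

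Members and lists were chosen with earlier results of these data known. All 35 members are named. Full values are given for members with an adjusted p under 0.05 and the 5 most abundant others, with at most 4 genes named per other list. Further genes were named after their values were seen.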

Additional observations from a re-analysis of the deposited data

How the results depend on the processing

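The rises of Zbtb34, Zbtb43, Zbtb39 and Zbtb6 held in all 14 settings, and none of the 9 risen genes changed sign in any. For single ZBTB genes, 468 of the values under other settings stayed on their side of the threshold, 17 lost a call and 5 gained one. For the genes named by rule from the other lists, 39 lost one and 381 did not. Genes named outside that rule, such as Ralgps1, Cul3, Spop, Kctd10, Kctd17 and Nacc1, were not counted there. The count of ZBTB genes higher in C/D was 4 with limma on log2(TPM + 1), and 6 to 10 with each library left out. The count lower was 0 except without Gel/S 2, where it was 2, Bcl6 and Zbtb11. Their median log2 fold change was −0.0295 with limma on TPM, where the median of all tested genes was −0.12, so it stayed above that median, and 0.0483 without the level filter, 0.138 with the gene length offset, 0.0455 for limma at FPKM + 1, 0.0577 at FPKM + 0.1, and 0.0585 to 0.157 with each library left out. Over all genes, 1532 were higher and 1631 lower, of which 48.4% higher. The count higher was 1020 with limma on log2(FPKM + 1), 1008 on log2(FPKM + 0.1) and 633 (29.5% of calls) on log2(TPM + 1). With single libraries left out it ranged from 887 to 1989, and the count lower from 876 to 2089, each low without Gel/S 3 (887 and 1005), C/D 1 (910 and 902), C/D 2 (928 and 876) or C/D 3 (954 and 1006). The cause was not tested. Same-numbered C/D and Gel/S libraries did not deviate together (correlations of −0.0568, −0.0589 and 0.0454), and no C/D library correlated best with its own number, so the numbers were not taken as pairs. With the replicate block 1242 genes were higher and 1302 lower, with 9 ZBTB genes higher. Zbtb3 rests on 68 to 100 counts per library (SE 0.188), and whether depth or the spread between libraries limits its call was not tested.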
